A study of Homo sapiens with 6 samples.

Results

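The genes examined here were 10 genes of the cadherin switch and of epithelial-mesenchymal transition (EMT), read as rows of the expression table by their symbols: the cadherins CDH1, CDH2 and CDH6, the intermediate filament gene VIM, and the transcription factor genes SNAI1, SNAI2, TWIST1, TWIST2, ZEB1 and ZEB2. They were 10 of the 20442 genes in the table. HK-2 is an established line of human proximal tubule cells, immortalized with papillomavirus genes. The study infected HK-2 cells with a lentivirus to overexpress the RNA-binding protein hnRNP-F, whose human gene is HNRNPF, or with a control lentivirus. It sequenced poly(A) RNA after 72 h in medium with 30 mM glucose or with 30 mM mannitol, the osmotic control. There were 6 libraries, 3 labelled HNRNPF overexpression (OE-labelled) and 3 labelled control (NC-labelled, with a control plasmid named as their treatment). The medium of each library was not stated, so glucose and mannitol cannot be told apart here. The level is FPKM, sequenced fragments corrected for the length of the transcript and for the size of the library, with 1 value per gene and library.

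Epithelial cells hold to each other through cadherins, membrane proteins whose outer domains bind like cadherins on the next cell and whose tails bind catenins and, through them, actin. In EMT, cells exchange E-cadherin for N-cadherin and build vimentin filaments, and the Snail, Twist and ZEB families of DNA-binding repressors are the best known drivers of this program. The kidney is an unusual epithelium in this respect, because the human proximal tubule normally carries N-cadherin and cadherin-6 as its main cadherins, and E-cadherin is mostly a protein of later segments of the nephron. N-cadherin in a proximal tubule cell is therefore not by itself a mesenchymal mark.

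HNRNPF (gene ID 3185, GRCh38.p14 chr10:43385618-43409186) went against the labels. It had 322.83, 349.84 and 320.8 FPKM in the OE-labelled libraries, against 555.18, 563.36 and 588.68 FPKM in the NC-labelled libraries, a level 1.72-fold lower in the OE-labelled libraries (log2 difference -0.78 with an SE of 0.061, limma adjusted p = 1.07e-04). All directions given here follow the labels. The table does not tell a delivered copy from the gene of the cell. The study lists its construct under a gene ID other than 3185, the ID of the row read here. Between 12396 and 12462 genes reached 1 FPKM in each library. Pearson's r across genes was 0.989 to 0.994 within groups and 0.978 to 0.985 between groups, and genes are not independent replicates. The table holds FPKM and no fragment counts, and the fragments behind a value were not recovered from it, so no counting interval is given. Read totals that the study lists for its libraries were not used here. The study describes its replicates as biological, and the labels do not state whether the replicate libraries came from separate infections or days, so the p-values cover the variation among these libraries and no more.

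The labelled cell type was checked against marker genes. All 8 renal epithelial markers were tested, and PAX8, a transcription factor of renal epithelium, was at 321.14 to 394.39 FPKM in the OE-labelled libraries and 317.97 to 359.44 FPKM in the NC-labelled libraries. Of the 8, 1 was called and 7 were not, where 24.4% of all tested genes passed. The keratin gene KRT18 was called lower, at 262.14 to 270.28 FPKM in the OE-labelled libraries and 303.86 to 311.86 FPKM in the NC-labelled libraries. Of 13 proximal tubule markers only 4 were tested, and the endocytic receptor gene LRP2 and the organic anion transporter genes SLC22A6 and SLC22A8 were listed at 0 in all 6 libraries. The brush border enzyme gene GGT1 was called higher, at 90.17 to 107.09 and 66.29 to 79.13 FPKM in the OE-labelled and NC-labelled libraries. The glucose transporter gene SLC5A2 was not called, at 18.25 to 19.35 and 15.92 to 19.19 FPKM in the OE-labelled and NC-labelled libraries. MIOX, an enzyme of inositol breakdown, was not called, at 29.38 to 34.02 and 34.23 to 39.84 FPKM in the OE-labelled and NC-labelled libraries. Its groups did not overlap, as was so for 42.1% of all tested genes. Cadherin-2 and vimentin are also made by fibroblasts, and of 9 fibroblast markers 2 were tested, with a summed level of 17.9 to 18.5 FPKM in the OE-labelled libraries and 15.2 to 16.9 FPKM in the NC-labelled libraries. Those 2 were the collagen gene COL1A1, called higher, at 7.21 to 7.58 FPKM in the OE-labelled libraries and 3.75 to 5.43 FPKM in the NC-labelled libraries, and LUM, which encodes lumican, at 9.6 to 10.02 and 8.67 to 11.69 FPKM in the OE-labelled and NC-labelled libraries. The collagen gene COL1A2 did not exceed 0.03 FPKM and FAP did not exceed 0.05 FPKM in any library. For 7 leukocyte markers, of which CD68 made up most, the sum was 196 to 219 FPKM in the OE-labelled libraries and 167 to 184 FPKM in the NC-labelled libraries, and PTPRC, the pan-leukocyte marker, did not exceed 0.04 FPKM. The sum of 7 endothelial markers was 35.5 to 42.7 and 32 to 37.1 FPKM in the OE-labelled and NC-labelled libraries. Nearly all of it was EGFL7, at 35.07 to 42.34 and 31.75 to 36.84 FPKM in the OE-labelled and NC-labelled libraries. KDR, another of these 7, was listed at 0 in every library. The sum of 8 distal tubule and collecting duct markers was 8.74 to 9.88 and 5.54 to 7.05 FPKM in the OE-labelled and NC-labelled libraries, with UMOD and AQP2 listed at 0 in every library. Most of that sum was SCNN1A, called higher, at 6.31 to 8.05 and 4.1 to 5.46 FPKM in the OE-labelled and NC-labelled libraries. The part of these differences in the results was not tested.

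Snail and ZEB proteins bind the E-box CAGGTG, which reads CACCTG on the other strand, and repress E-cadherin through it. The RefSeq promoter table (GRCh38.p14, windows of 300 bases, 250 before and 50 after each start site) matched 5 of the 10 genes, CDH2, VIM, TWIST2, ZEB1 and ZEB2, with 12 windows. Windows for CDH1, CDH6, SNAI1, SNAI2 and TWIST1 were not matched. The E-box was searched as CAGGTG or CACCTG, which are the same site on opposite strands. It was in 2 of the 12 windows, both at ZEB1, against 7231 of 35116 windows (20.6%) over all genes. ZEB1 had 7 of the 12 windows, CDH2 had 2, and VIM, TWIST2 and ZEB2 had 1 each. ZEB1 thus had the most places for a match, and the boxes do not set it apart from other genes. The stretches before the first start sites of CDH2 (chr18:28177131-28177380, minus strand, 66.0% GC) and ZEB1 (chr10:31318167-31318416, plus strand, 59.2% GC) are printed because both genes were lower in the OE-labelled libraries and only ZEB1 held the E-box in its windows. Capitals mark the E-box, which began 57 bases before the ZEB1 start. The CDH2 stretch holds none.
CDH2 upstream: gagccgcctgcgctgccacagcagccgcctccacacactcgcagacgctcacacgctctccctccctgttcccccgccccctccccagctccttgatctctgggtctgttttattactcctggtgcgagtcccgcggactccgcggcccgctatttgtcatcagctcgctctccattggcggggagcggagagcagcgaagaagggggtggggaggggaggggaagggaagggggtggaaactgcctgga
ZEB1 upstream: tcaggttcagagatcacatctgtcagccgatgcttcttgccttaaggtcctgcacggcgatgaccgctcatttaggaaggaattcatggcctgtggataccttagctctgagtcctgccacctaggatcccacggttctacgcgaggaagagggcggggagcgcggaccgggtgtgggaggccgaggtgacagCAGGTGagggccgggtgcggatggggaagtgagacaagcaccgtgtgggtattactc
The window at another ZEB1 start site, listed as start site 3, held 3 boxes, 242 and 85 bases before that start and 33 bases after it. They are printed with their flanks to show their orientation (chr10:31318966-31318995, chr10:31319119-31319148 and chr10:31319236-31319265, plus strand).
ZEB1 box 1: ccccaccaCACCTGaggaaaacttttccct
ZEB1 box 2: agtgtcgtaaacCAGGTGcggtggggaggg
ZEB1 box 3: tggcggatggcccCAGGTGtaagcgcagaa
The first box reads CACCTG and the others CAGGTG. A match of letters is a description and does not show that a factor binds there.

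Among the cadherins, the E-cadherin transcript was near 0, that of N-cadherin was the most abundant and was lower in the OE-labelled libraries, and that of cadherin-6 did not pass the test. CDH1 (chr16:68737292-68835537), which encodes E-cadherin, had 0.02, 0 and 0 FPKM in the OE-labelled libraries, against 0.02, 0.02 and 0.07 FPKM in the NC-labelled libraries. It lay far under the filter of 1 FPKM that a gene needed to be tested, and no fold change or ratio to CDH1 was computed because of the values listed at 0. The level of CDH1 ranked 16101 of 20442 genes by mean FPKM.

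CDH2 (gene ID 1000, chr18:27932879-28177130, minus strand), which encodes N-cadherin, had 83.29, 89.51 and 89.67 FPKM in the OE-labelled libraries, against 126.4, 122.01 and 114.42 FPKM in the NC-labelled libraries. The groups did not overlap, and the gap between them was larger than the range within either group. The means were 87.5 ± 3.64 FPKM in the OE-labelled libraries and 121 ± 6.06 FPKM in the NC-labelled libraries (SD, n = 3 each). CDH2 was 1.38-fold lower in the OE-labelled libraries (log2 difference -0.47 with an SE of 0.064 and a 95% interval of -0.61 to -0.32, limma adjusted p = 0.00153). Here and below, log2 differences and log2 fold changes are both on log2(FPKM + 0.1), OE-labelled minus NC-labelled, and p-values are two-sided and adjusted over all 12461 tested genes. In bulk RNA, fewer cells with a transcript and less of it per cell cannot be told apart.

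CDH6 (gene ID 1004, chr5:31193686-31329146), which encodes cadherin-6, also called K-cadherin for its expression in kidney, had 66.32, 75.03 and 69.85 FPKM in the OE-labelled libraries, against 75.99, 71.22 and 69.66 FPKM in the NC-labelled libraries. The values of the groups were interleaved. The means were 70.4 ± 4.38 and 72.3 ± 3.3 FPKM in the OE-labelled and NC-labelled libraries (SD, n = 3 each), with a log2 difference of -0.04 (95% interval of -0.19 to 0.11, limma adjusted p = 0.702). The interval leaves room for a level up to 0.19 lower or 0.11 higher on the log2 scale.

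A ratio of cadherins within a library does not move with the scaling of that library. The ratio of CDH2 to CDH6, in FPKM, was 1.26, 1.19 and 1.28 in the OE-labelled libraries, against 1.66, 1.71 and 1.64 in the NC-labelled libraries. The CDH2 transcript was the more abundant of this pair in all 6 libraries, and its lead over CDH6 was 1.35-fold smaller in the OE-labelled libraries (difference of mean log2 ratios -0.43, with SDs of 0.05 and 0.03 in the OE-labelled and NC-labelled libraries). No test was run on the ratio.

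**Figure D1:**
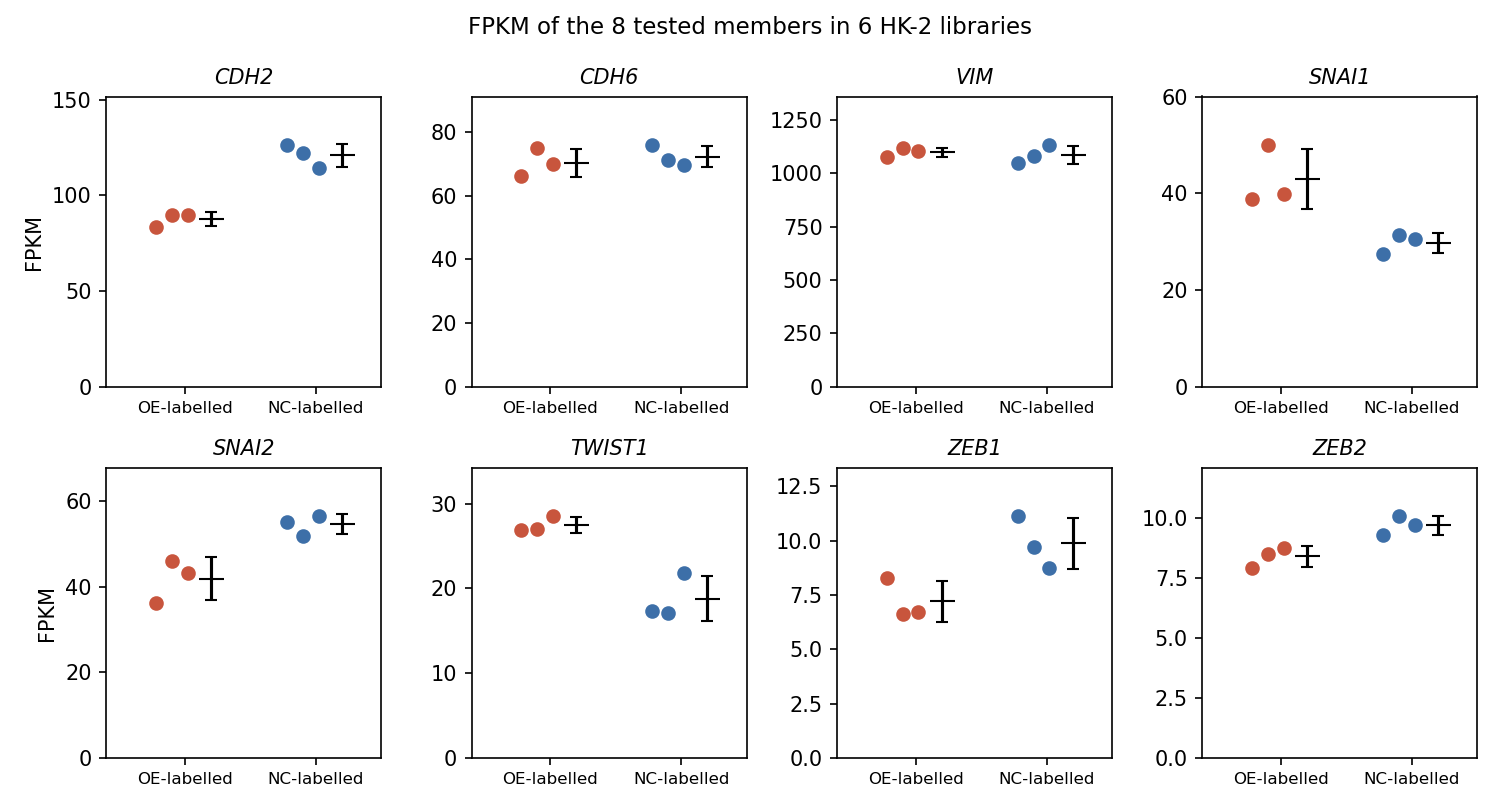
FPKM (vertical axes, each from 0) of the 8 genes that reached a mean of 1 FPKM, with 1 point per library, OE-labelled on the left and NC-labelled on the right, and bars for the mean ± SD of 3 libraries. CDH2, SNAI2, ZEB1 and ZEB2 sit lower in all OE-labelled libraries, SNAI1 and TWIST1 higher, and CDH6 and VIM overlap.

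The fall of CDH2 was set beside its chromosomal surroundings, because genes that lie near each other can shift together. Within 5 Mb of the CDH2 start there were 21 other tested genes, with a median log2 fold change of -0.30, and 16 of them were below 0. Of these, 9 were lower and 1 was higher past the threshold. None of the 21 was as low as CDH2, the nearest being TRAPPC8, a gene of a trafficking complex, at -0.44. Over the 170 tested genes of chromosome 18 the median was -0.21, with 63 lower and 13 higher, whereas the median over all tested genes was -0.013. Of all tested genes 13.1% were lower and 11.3% higher past the threshold. Once the shift of neighbouring genes was subtracted, CDH2 stood at -0.17 and no longer passed (limma adjusted p = 0.0996). Here and below that shift is the neighbour median taken as a fixed value, so p-values after its subtraction leave out its error.

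CDH6 differed from its surroundings in the other direction. Of 16 tested neighbours on chromosome 5, 15 were below 0 and 14 were below CDH6, with a median log2 fold change of -0.27. With that shift subtracted, CDH6 was at 0.23 (limma adjusted p = 0.0419), so its direction and its call both depend on whether neighbours are considered. The exception among the CDH6 neighbours was ADAMTS12, a secreted metalloprotease gene, at a log2 fold change of 0.64. Copy number was not measured, and a shift of a chromosomal region and a change of the gene itself cannot be told apart from these values.

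**Figure D2:**
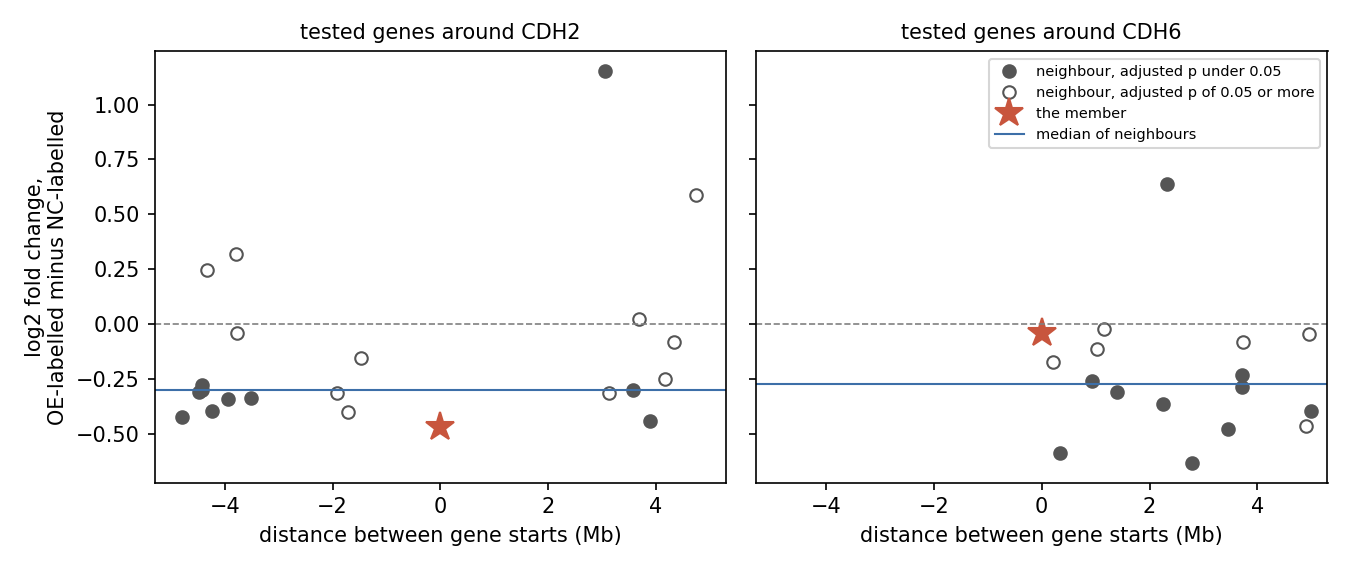
Log2 fold change, OE-labelled minus NC-labelled (vertical axis), of tested genes within 5 Mb of CDH2 and of CDH6, against the distance between gene starts in Mb (horizontal axis). The star is the cadherin, the blue line is the median of its neighbours (-0.30 around CDH2, -0.27 around CDH6), and filled points have an adjusted p under 0.05; CDH2 lies below all 21 neighbours and CDH6 above 14 of 16.

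VIM (gene ID 7431, chr10:17228241-17237593, plus strand), which encodes the filament protein vimentin, was the most abundant of the 10 genes and stayed within its spread. It had 1076.34, 1117.84 and 1104.18 FPKM in the OE-labelled libraries, against 1050.37, 1080.5 and 1134.33 FPKM in the NC-labelled libraries. The ranges overlapped, with the highest value in an NC-labelled library. The log2 difference was 0.02 (95% interval of -0.12 to 0.15, limma adjusted p = 0.878), so a change of vimentin larger than 0.15 on the log2 scale in either direction lies outside the interval. VIM ranked 112 of 20442 genes by mean level, with 1099 ± 21.1 FPKM in the OE-labelled libraries and 1088 ± 42.5 FPKM in the NC-labelled libraries (SD, n = 3 each).

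The transcription factor genes moved in both directions, also within the Snail family. SNAI1 (gene ID 6615, chr20:49982980-49988886) encodes Snail, a zinc finger repressor of E-cadherin. It had 38.8, 50.06 and 39.91 FPKM in the OE-labelled libraries, against 27.49, 31.4 and 30.62 FPKM in the NC-labelled libraries. Every OE-labelled library lay above every NC-labelled library, and the OE-labelled libraries spread more widely. SNAI1 rose 1.43-fold (42.9 ± 6.21 FPKM in the OE-labelled libraries and 29.8 ± 2.07 FPKM in the NC-labelled libraries, SD, n = 3 each; log2 difference 0.52 with a 95% interval of 0.29 to 0.74, limma adjusted p = 0.00784). Of its 58 tested neighbours within 5 Mb, 56 had a lower log2 fold change, and their median was -0.00.

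SNAI2 (gene ID 6591, chr8:48917598-48921429) encodes Slug, the close relative of Snail. It had 36.26, 46.09 and 43.08 FPKM in the OE-labelled libraries, against 55.18, 51.92 and 56.46 FPKM in the NC-labelled libraries. The order was the reverse of that of SNAI1, again with no overlap. SNAI2 fell 1.31-fold (41.8 ± 5.04 FPKM in the OE-labelled libraries and 54.5 ± 2.34 FPKM in the NC-labelled libraries, SD, n = 3 each; log2 difference -0.39 with a 95% interval of -0.59 to -0.19, limma adjusted p = 0.0142). With the shift of its 9 tested neighbours subtracted (median -0.10) it stood at -0.29 and narrowly missed the threshold (limma adjusted p = 0.0513).

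The balance of the Snail pair differed between the groups in every library. The ratio of SNAI1 to SNAI2 was 1.07, 1.09 and 0.926 in the OE-labelled libraries, against 0.498, 0.605 and 0.542 in the NC-labelled libraries. Both transcripts were at nearly the same level in the OE-labelled libraries, and SNAI2 was clearly the more abundant in the NC-labelled libraries, a 1.87-fold difference in the ratio (0.91 on the log2 scale). This ratio and that of TWIST1 to ZEB1 were chosen after the values were seen and were not tested.

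TWIST1 (gene ID 7291, chr7:19113047-19117636) encodes a basic helix-loop-helix factor that can activate CDH2 and repress CDH1. It had 26.87, 27.01 and 28.53 FPKM in the OE-labelled libraries, against 17.33, 17.13 and 21.85 FPKM in the NC-labelled libraries. The OE-labelled libraries were tightly grouped and NC-labelled replicate 3 was the nearest to them. TWIST1 rose 1.47-fold (27.5 ± 0.921 FPKM in the OE-labelled libraries and 18.8 ± 2.67 FPKM in the NC-labelled libraries, SD, n = 3 each; log2 difference 0.56 with a 95% interval of 0.34 to 0.78, limma adjusted p = 0.00515). All 22 tested neighbours had a lower log2 fold change than TWIST1, with a median of -0.19, and with that shift subtracted TWIST1 was at 0.75 (limma adjusted p = 0.00137). TWIST2 (gene ID 117581, chr2:238848085-238910534, plus strand), its paralog, was listed at 0 in all 6 libraries.

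ZEB1 and ZEB2 encode large zinc finger and homeobox repressors that bind pairs of E-boxes. ZEB1 (gene ID 6935, chr10:31318417-31529804, plus strand), whose windows hold the E-boxes printed above, had 8.3, 6.61 and 6.73 FPKM in the OE-labelled libraries, against 11.13, 9.73 and 8.76 FPKM in the NC-labelled libraries. The groups did not overlap, but OE-labelled replicate 1 and NC-labelled replicate 3 lay close to each other. ZEB1 fell 1.36-fold (7.21 ± 0.943 FPKM in the OE-labelled libraries and 9.87 ± 1.19 FPKM in the NC-labelled libraries, SD, n = 3 each; log2 difference -0.45 with a 95% interval of -0.73 to -0.17, limma adjusted p = 0.0286). This was the least stable of the calls. It no longer passed without OE-labelled replicate 2 (adjusted p = 0.0933), OE-labelled replicate 3 (0.0935), NC-labelled replicate 1 (0.0946) or NC-labelled replicate 2 (0.0837) in limma, nor with the shift of its neighbours subtracted (-0.37, limma adjusted p = 0.0685).

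ZEB2 (gene ID 9839, chr2:144384081-144520119, minus strand) had 7.92, 8.5 and 8.77 FPKM in the OE-labelled libraries, against 9.31, 10.08 and 9.7 FPKM in the NC-labelled libraries. The groups did not overlap, yet the difference was small and did not pass after adjustment (8.4 ± 0.434 FPKM in the OE-labelled libraries and 9.7 ± 0.385 FPKM in the NC-labelled libraries, SD, n = 3 each; log2 difference -0.21 with a 95% interval of -0.41 to -0.01, limma adjusted p = 0.118). TWIST1 exceeded ZEB1 in every library, with a TWIST1 to ZEB1 ratio of 3.24, 4.09 and 4.24 in the OE-labelled libraries and 1.56, 1.76 and 2.49 in the NC-labelled libraries. The ratio of ZEB1 to ZEB2 overlapped between the groups, at 1.05, 0.778 and 0.767 in the OE-labelled libraries and 1.2, 0.965 and 0.903 in the NC-labelled libraries.

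**Figure D3:**
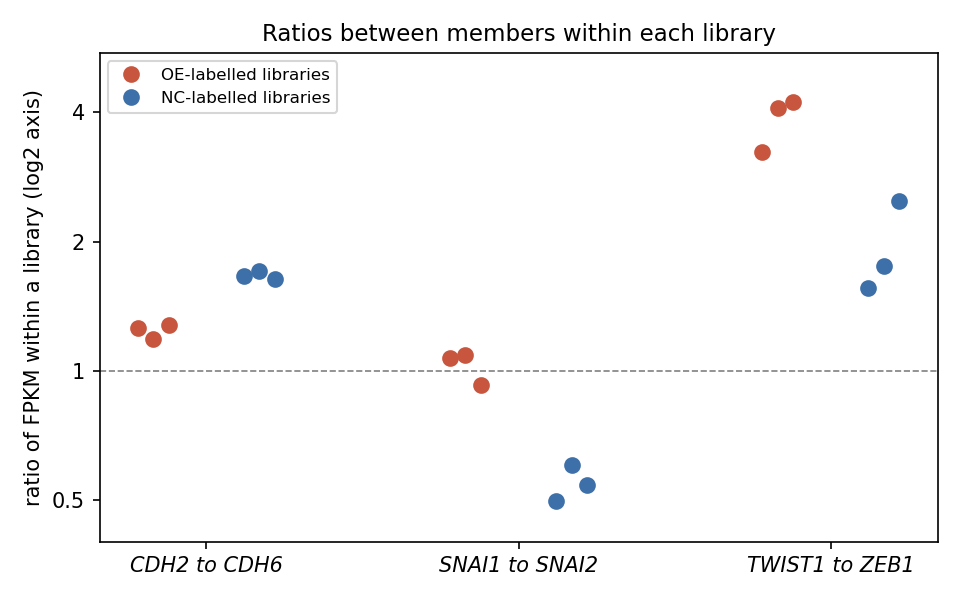
Ratio of FPKM within each library (vertical axis, log2 scale) for 3 pairs of genes, with 1 point per library, OE-labelled in red to the left and NC-labelled in blue to the right. The CDH2 to CDH6 ratio is lower in all OE-labelled libraries, and the SNAI1 to SNAI2 and TWIST1 to ZEB1 ratios are higher.

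Of the 10 genes, 8 were tested and 2, CDH1 and TWIST2, lay under the filter. Of the 8, 5 passed an adjusted p of 0.05, SNAI1 and TWIST1 higher and CDH2, SNAI2 and ZEB1 lower, where 24.4% of all tested genes passed, 11.3% upwards and 13.1% downwards. The FPKM ranges were apart for 6 of the 8, where 42.1% of all tested genes did not overlap. For each of these 6 genes an exact two-sided permutation test on mean log2(FPKM + 0.1) gave p = 0.10, the smallest that 3 libraries against 3 allow. That value follows from the ranges being apart and adds nothing to it. The median log2 fold change of the 8 was -0.12, beside -0.013 over all tested genes. The calls depended on the filter: with no filter on low values, CDH2 passed (limma adjusted p = 0.0203) and SNAI1 (0.0846), TWIST1 (0.0606), SNAI2 (0.103) and ZEB1 (0.134) did not. In that fit 1293 in place of 3039 genes passed over the whole table. All 5 called genes changed by less than 2-fold, and CDH2, SNAI1, SNAI2 and TWIST1 passed without any 1 of the 6 libraries.

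**Figure D4:**
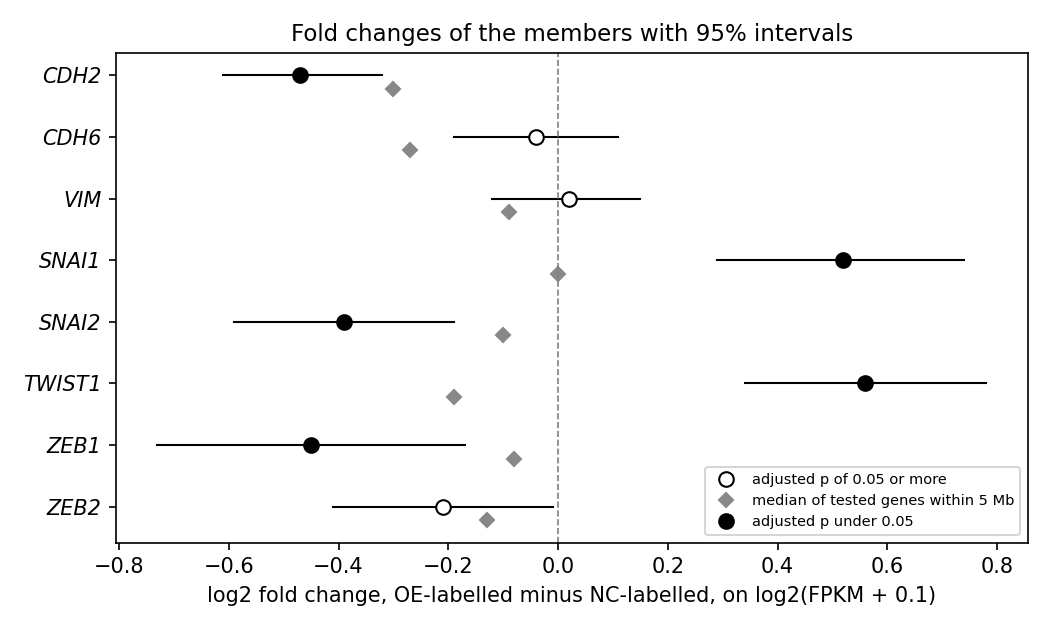
Log2 fold change, OE-labelled minus NC-labelled, on log2(FPKM + 0.1) (horizontal axis) with its 95% interval for the 8 tested genes. Filled circles have an adjusted p under 0.05, open circles do not, and grey diamonds are the median of the tested genes within 5 Mb, which lies to the left of TWIST1 (-0.19 beside 0.56) and to the right of CDH2 (-0.30 beside -0.47).

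By mean FPKM over the 6 libraries the order was VIM (1094), CDH2 (104), CDH6 (71.3), SNAI2 (48.2), SNAI1 (36.4), TWIST1 (23.1), ZEB2 (9.05), ZEB1 (8.54), CDH1 (0.0217) and TWIST2 (0). FPKM is scaled by transcript length, so levels can be set beside each other across genes. The order held in every library except within 3 pairs of neighbours. CDH1 and TWIST2 were both listed at 0 in OE-labelled replicates 2 and 3. ZEB1 lay above ZEB2 in OE-labelled replicate 1 and NC-labelled replicate 1 and below it in the others, so their order was within the spread. SNAI1 lay above SNAI2 in OE-labelled replicates 1 and 2 and below it in OE-labelled replicate 3 and in all NC-labelled libraries. Reads from antisense genes were not separable here, since the strand setting of the counting was not stated. The annotation places antisense genes over VIM (VIM-AS1), ZEB1 (ZEB1-AS1) and ZEB2 (ZEB2-AS1) among others, and no protein-coding gene overlaps any of the 10.

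The genes whose pattern over the 6 libraries was most like that of CDH2 were COBLL1, ATG7 and XBP1. Likeness was the root mean square difference of centred log2(FPKM + 0.1) values, 0.021 for COBLL1, 0.024 for ATG7 and 0.028 for XBP1. COBLL1 (chromosome 2) had 8.91, 9.46 and 9.2 FPKM in the OE-labelled libraries, against 13.25, 12.65 and 12.13 FPKM in the NC-labelled libraries. ATG7 (chromosome 3), a gene of autophagy, had 14.6, 15.27 and 15.22 FPKM in the OE-labelled libraries, against 21.85, 21.77 and 19.67 FPKM in the NC-labelled libraries. XBP1 (chromosome 22), a transcription factor gene of the unfolded protein response, had 151.03, 166.24 and 165.82 FPKM in the OE-labelled libraries, against 221.18, 218.91 and 206.37 FPKM in the NC-labelled libraries. None of them lies on the chromosome of CDH2, and 519 genes came within a difference of 0.1, so the pattern is common in the table.

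Other cadherins were few in these cells. Of 20 listed genes 3 were tested and 4 were listed at 0 in all libraries, among them CDH11, and CDH3 had a mean of 0.295 FPKM and the endothelial CDH5 0.015 FPKM. Of the 3 tested, 2 fell and CDH24 did not pass (12.02 to 15.27 FPKM in the OE-labelled libraries and 13.59 to 15.57 FPKM in the NC-labelled libraries), where 11.3% of all tested genes rose and 13.1% fell. Their median log2 fold change was -0.39, beside -0.013 over all tested genes. CDH16, kidney-specific cadherin, was at 19.8 ± 0.765 FPKM in the OE-labelled libraries and 26 ± 2.26 FPKM in the NC-labelled libraries (SD, n = 3 each), a log2 difference of -0.39 (limma adjusted p = 0.00985). CDH4, R-cadherin, was low, at 1.05 ± 0.136 and 2.32 ± 0.612 FPKM in the OE-labelled and NC-labelled libraries (SD, n = 3 each), a log2 difference of -1.04 (limma adjusted p = 0.011). Neither passed with no filter on low values (limma adjusted p = 0.0713 for CDH4 and 0.0556 for CDH16). CDH2, CDH4 and CDH16 were thus called lower in the OE-labelled libraries, and CDH6 and CDH24 were not called. CDH4 lay near the filter in the OE-labelled libraries, and so few tested genes give no direction for the family.

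The partners of cadherins inside the cell were taken next. Of 16 tested catenin and adherens junction genes 2 fell, none rose and 14 did not pass, where 24.4% of all tested genes passed (median log2 fold change -0.06). CTNNB1, which encodes beta-catenin, the partner that binds the cadherin tail, was at 124 ± 1.07 FPKM in the OE-labelled libraries and 157 ± 4.24 FPKM in the NC-labelled libraries (SD, n = 3 each), a log2 difference of -0.35 (limma adjusted p = 0.00309). Its neighbours had a median of -0.30, and with that shift subtracted CTNNB1 was at -0.05 (limma adjusted p = 0.581). VEZT, which encodes the junction protein vezatin, was at 29.6 ± 0.864 and 36 ± 2.78 FPKM in the OE-labelled and NC-labelled libraries (SD, n = 3 each), a log2 difference of -0.28 (limma adjusted p = 0.0262), and of the 6 fits that each left out a library it passed only in that without NC-labelled replicate 3 (limma adjusted p of 0.0579 to 0.0946 in the other 5). With the neighbour shift subtracted VEZT was at -0.08 (limma adjusted p = 0.475).

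Desmosomes are the other cadherin-based junction, and of 7 tested desmosome genes 1 rose, 2 fell and 4 did not pass, where 24.4% of all tested genes passed (median log2 fold change -0.01). DSP, desmoplakin, which ties the junction to intermediate filaments, was at 15.2 ± 1.72 FPKM in the OE-labelled libraries and 22.4 ± 0.36 FPKM in the NC-labelled libraries (SD, n = 3 each), a log2 difference of -0.56 (limma adjusted p = 0.00322). The desmosomal cadherin genes DSG2 and DSC3 are themselves neighbours of CDH2 on chromosome 18 and moved in opposite directions. DSG2 was at 44.3 ± 1.65 and 54.6 ± 2.45 FPKM in the OE-labelled and NC-labelled libraries (SD, n = 3 each), a log2 difference of -0.30 (limma adjusted p = 0.0107), and it missed the threshold without NC-labelled replicate 2 (0.0528) and with the neighbour shift subtracted (-0.12, limma adjusted p = 0.214). DSC3 was low, at 1.45 ± 0.0557 and 0.607 ± 0.151 FPKM in the OE-labelled and NC-labelled libraries (SD, n = 3 each), a log2 difference of 1.15 (limma adjusted p = 0.011), the highest of the 21 CDH2 neighbours, and it dropped under the filter when any OE-labelled library was left out. The NC-labelled mean of DSC3 was under the filter of 1 FPKM, so DSC3 was tested only through its OE-labelled level.

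Of 30 genes of the epithelial state 17 were tested, of which 7 rose, 2 fell and 8 did not pass, where 11.3% of all tested genes rose and 13.1% fell (median log2 fold change 0.15, beside -0.013 over all tested genes). The 2 that fell were CRB3 (log2 fold change -0.33) and CLDN1 (-0.305). ESRP2, a splicing regulator of epithelial cells, was at 13.4 ± 0.232 FPKM in the OE-labelled libraries and 8.45 ± 0.553 FPKM in the NC-labelled libraries (SD, n = 3 each), a log2 difference of 0.66 (limma adjusted p = 0.00129). OVOL2, a repressor of ZEB1, was near the filter, at 1.41 ± 0.137 and 0.777 ± 0.0808 FPKM in the OE-labelled and NC-labelled libraries (SD, n = 3 each), a log2 difference of 0.78 (limma adjusted p = 0.0309). The NC-labelled mean of OVOL2 was under the filter of 1 FPKM, so OVOL2 was tested only through its OE-labelled level. CDS1, an enzyme of phospholipid synthesis, was at 4.58 ± 1.01 and 2.96 ± 0.317 FPKM in the OE-labelled and NC-labelled libraries (SD, n = 3 each), a log2 difference of 0.59 (limma adjusted p = 0.0354). OVOL2 lost its call on leaving out any library but NC-labelled replicate 3 (limma adjusted p of 0.0527 to 0.11), and CDS1 without OE-labelled replicate 2 or 3 or NC-labelled replicate 1 or 2 (0.0661 to 0.125) and with the neighbour shift subtracted (0.0936). In the list as a whole, 4 in place of 7 genes of the list rose without OE-labelled replicate 3 or without NC-labelled replicate 2. Over all tested genes fewer also rose in both fits, with 543 in place of 1410 without NC-labelled replicate 2. Among the untested genes of the list, the epithelial transcription factor gene GRHL2 was listed at 0 in all libraries and ESRP1, the paralog of ESRP2, had a mean of 0.31 FPKM.

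Of 34 genes of the mesenchymal state 26 were tested, of which 3 rose, 12 fell and 11 did not pass, where 11.3% of all tested genes rose and 13.1% fell (median log2 fold change -0.26). The 3 that rose were LOX (log2 fold change 0.68), COL1A1 (0.64) and AXL (0.23). TAGLN, which encodes the actin-binding protein transgelin, had the largest change of the list, at 12.8 ± 1.22 FPKM in the OE-labelled libraries and 36.4 ± 0.825 FPKM in the NC-labelled libraries (SD, n = 3 each), a log2 difference of -1.51 (limma adjusted p = 1.61e-05). The gelatinase gene MMP9 was at 3.28 ± 0.532 and 5.45 ± 0.682 FPKM in the OE-labelled and NC-labelled libraries (SD, n = 3 each), a log2 difference of -0.72 (limma adjusted p = 0.00988). The gelatinase gene MMP2 was low, at 0.983 ± 0.15 and 1.79 ± 0.0321 FPKM in the OE-labelled and NC-labelled libraries (SD, n = 3 each), a log2 difference of -0.81 (limma adjusted p = 0.0197), and it missed the threshold in 3 of 6 leave-one-out fits, namely without OE-labelled replicate 2, NC-labelled replicate 1 or NC-labelled replicate 2 (0.0554 to 0.0716). The OE-labelled mean of MMP2 was under the filter of 1 FPKM, so MMP2 was tested only through its NC-labelled level. Without NC-labelled replicate 2, 7 in place of 12 genes of the list fell, and 716 in place of 1629 over all tested genes. The lists for the epithelial and mesenchymal states were chosen with earlier results of these data known, and no test of a list was run.

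Of 31 other EMT-linked transcription factor genes 25 were tested, of which 3 rose, 3 fell and 19 did not pass, where 11.3% of all tested genes rose and 13.1% fell (median log2 fold change 0.06). FOXC2, a forkhead factor, was at 1.93 ± 0.276 FPKM in the OE-labelled libraries and 4.7 ± 1.75 FPKM in the NC-labelled libraries (SD, n = 3 each), a log2 difference of -1.19 (limma adjusted p = 0.00854), with a wide spread in the NC-labelled libraries. TBX3, a T-box repressor, was at 1.78 ± 0.214 and 0.95 ± 0.05 FPKM in the OE-labelled and NC-labelled libraries (SD, n = 3 each), a log2 difference of 0.83 (limma adjusted p = 0.0171), a call that was lost without OE-labelled replicate 2, OE-labelled replicate 3 or NC-labelled replicate 2 (0.0568 to 0.0677). The NC-labelled mean of TBX3 was under the filter of 1 FPKM, so TBX3 was tested only through its OE-labelled level. ID3, an inhibitor of basic helix-loop-helix factors, was at 552 ± 26 FPKM in the OE-labelled libraries and 392 ± 9.34 FPKM in the NC-labelled libraries (SD, n = 3 each), a log2 difference of 0.49 (limma adjusted p = 9.34e-04), which was 0.27 with the neighbour shift subtracted (limma adjusted p = 0.0167). Without OE-labelled replicate 3, 1 in place of 3 genes of the list fell. SNAI3, the remaining Snail gene, was under the filter with a mean of 0.613 FPKM.

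Of 26 tested corepressors and partners of Snail, ZEB and Twist proteins, 10 rose, 1 fell and 15 did not pass, where 11.3% of all tested genes rose and 13.1% fell (median log2 fold change 0.05). WTIP, a LIM protein of the Ajuba family that binds Snail, was at 2.74 ± 0.27 FPKM in the OE-labelled libraries and 1.6 ± 0.254 FPKM in the NC-labelled libraries (SD, n = 3 each), a log2 difference of 0.75 (limma adjusted p = 0.0155), and it missed the threshold without OE-labelled replicate 1 or NC-labelled replicate 2 (0.0521 and 0.0663). NSD2, a histone methyltransferase linked to TWIST1, was at 84.4 ± 4.41 and 60.8 ± 2.89 FPKM in the OE-labelled and NC-labelled libraries (SD, n = 3 each), a log2 difference of 0.47 (limma adjusted p = 0.0018), which was 0.24 with the neighbour shift subtracted (limma adjusted p = 0.0362). SUV39H1, a methyltransferase that Snail recruits, was at 21.6 ± 1.37 and 16.5 ± 1.34 FPKM in the OE-labelled and NC-labelled libraries (SD, n = 3 each), a log2 difference of 0.39 (limma adjusted p = 0.012), and 0.0507 without NC-labelled replicate 2. The count of 10 was not stable. It was 5 without OE-labelled replicate 1, 2 or 3 or NC-labelled replicate 1, and 2 without NC-labelled replicate 2. Over all tested genes fewer also rose in each of these fits, with 543 in place of 1410 without NC-labelled replicate 2.

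**Figure D5:**
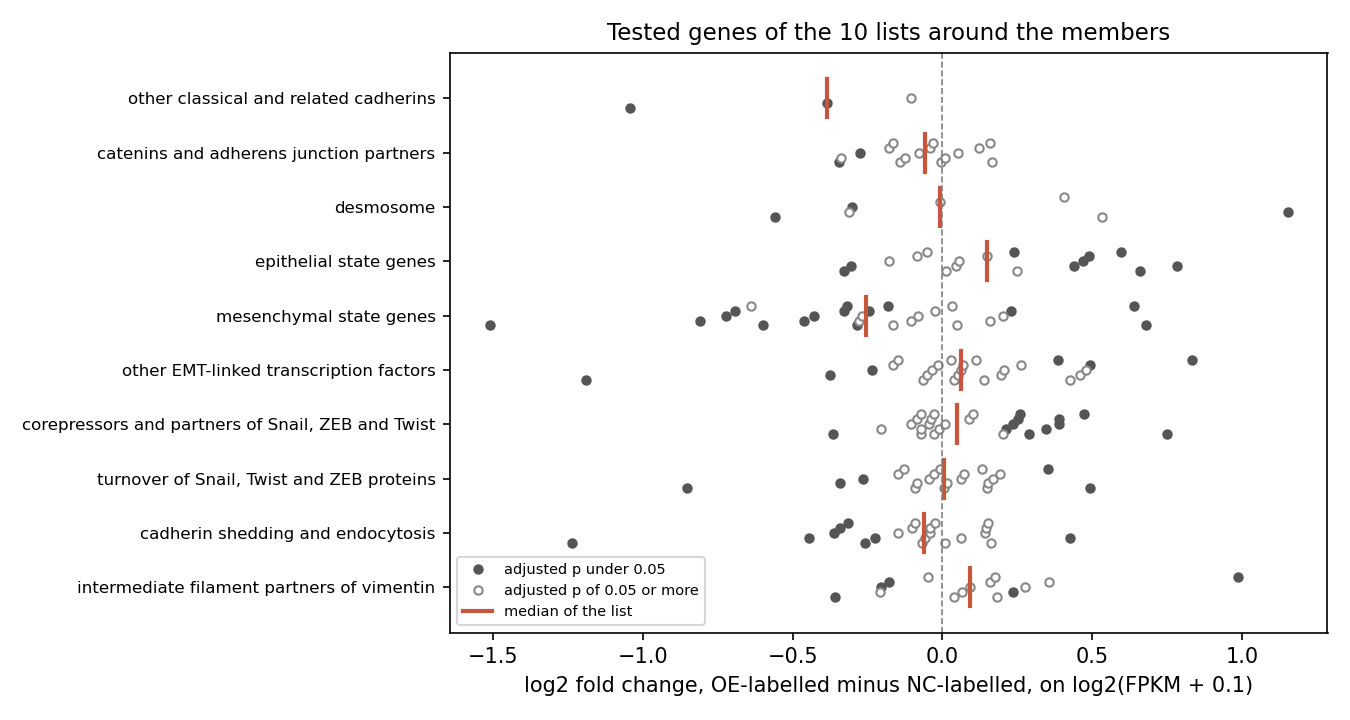
Log2 fold change, OE-labelled minus NC-labelled, on log2(FPKM + 0.1) (horizontal axis) of the tested genes of 10 lists around the cadherins, vimentin and the EMT factors, 1 point per gene. Filled points have an adjusted p under 0.05 and the red bar is the median of the list, from -0.39 for other cadherins and -0.26 for mesenchymal state genes to 0.15 for epithelial state genes.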

How the data were processed

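RNA was sequenced from 6 HK-2 libraries, grouped by their titles. The authors made stranded, paired-end poly(A) libraries, trimmed reads, aligned them to GRCh38 with HISAT2, kept uniquely mapped reads and computed the deposited FPKM, scaled by transcript length and mapped fragments, 1 column per library. HISAT2 and DESeq2 are also in the submitters' processing notes, as tools of the authors. Not given in the sources used here were the annotation, the counting tool and its strand setting, and whether the batch adjustment that the authors describe (ComBat_seq) touched the deposited FPKM was not stated. FPKM corrects for length and library size and not for a change in library makeup.

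Counts were not used here, and the authors' DESeq2 was not run. Instead, log2(FPKM + 0.1) was fitted in limma 3.58.1 under R 4.3.3 (trended eBayes), with group as the only term, two-sided, with Benjamini-Hochberg adjustment over the 12461 genes whose mean FPKM reached 1. This scale understates the change of low genes. Symbols were matched to RefSeq GRCh38.p14 (20164 of 20442, 98.6%) and antisense overlaps taken from GENCODE. Neighbours were tested genes with a start within 5 Mb, and their median log2 fold change was subtracted as a fixed value. The fit was tested on simulated data. Depth was sought in low FPKM of 888 single-exon genes. At best 46.1% to 56.2% of values came within 0.15 of whole fragments (30.0% by chance), so it was not recovered. Figures used matplotlib 3.10.9 in Python 3.11.15.

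Members and lists were chosen with earlier results of these data known. Named genes were the 10 members, HNRNPF, up to 3 genes per list with the largest absolute log2 fold change past an adjusted p of 0.05, and the 3 genes most like CDH2. CDH24, CDH3, CDH5, CDH11, ESRP1, GRHL2, SNAI3, TRAPPC8, ADAMTS12, LOX, COL1A1, AXL, CRB3 and CLDN1 were named after their values were seen. Alternatives were pseudocounts of 1 and 0.01, no filter, a filter at 5 FPKM, scaling by TPM, by quantiles or by median of ratios, limma with robust or untrended variance, the replicate number as a block, subtraction of the neighbour shift, and leaving out each library.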

Additional observations from a re-analysis of the deposited data

How the results depend on the processing

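The number of genes past an adjusted p of 0.05 was 3039, and it was 1293 with no filter, 2006 with the neighbour shift subtracted and 1259 to 4244 on leaving out 1 library (1259 without NC-labelled replicate 2, 1696 and 1829 without OE-labelled replicates 3 and 2, 1835 without NC-labelled replicate 1). Of the 10 genes 5 passed, against 1 with no filter, 3 with the neighbour shift subtracted and 4 to 5 on leaving out a library. Of the genes of the 10 lists 66 passed, against 38 with no filter and 33 to 85 on leaving out a library (33 without NC-labelled replicate 2). The share over all tested genes was 24.4%, and the number tested is given with each list. All tested genes that passed were also fewer with no filter (1293) and without NC-labelled replicate 2 (1259). With no filter the log2 fold changes stayed at 0.52 for SNAI1 (limma adjusted p = 0.0846), -0.39 for SNAI2 (0.103), 0.56 for TWIST1 (0.0606) and -0.45 for ZEB1 (0.134), and the calls were lost. With the neighbour shift subtracted CDH2 was at -0.17 (0.0996), SNAI2 at -0.29 (0.0513), ZEB1 at -0.37 (0.0685) and CDH6 at 0.23 (0.0419), which turned the sign of CDH6. The cause of these changes was not tested. On leaving out a library the ranges were -0.51 to -0.43 for CDH2, -0.09 to 0.0031 for CDH6, -0.01 to 0.05 for VIM, 0.40 to 0.58 for SNAI1, -0.46 to -0.29 for SNAI2, 0.49 to 0.67 for TWIST1, -0.55 to -0.36 for ZEB1 and -0.24 to -0.16 for ZEB2. CDH6 changed sign without OE-labelled replicate 1 (0.0031) and VIM without NC-labelled replicate 1 (-0.01), neither of them called. HNRNPF kept its direction and its call in every alternative (-0.82 to -0.63), and the difference in the CDH2 to CDH6 log2 ratio was -0.45 to -0.40. Same-numbered libraries did not deviate together (r = 0.091, -0.086 and 0.006), so the numbers were not taken as pairs. With the replicate number as a block 3115 genes passed and all 5 called members kept their calls (limma adjusted p = 0.00134 for CDH2, 0.00131 for SNAI1, 0.00125 for TWIST1, 0.00863 for SNAI2, 0.0114 for ZEB1). Of the 463 comparisons with an alternative, for the 28 list genes named for their largest changes, 406 kept direction and call, 57 lost the call and 0 reversed. The CDH2 to CDH1 ratio could not be computed because CDH1 was listed at 0. Over all alternatives the corepressor genes that rose numbered 2 to 12 and the shedding and endocytosis genes that fell 3 to 7, and list counts of 0 to 3 moved within 0 to 6. Over all tested genes 543 to 2071 rose and 714 to 2173 fell. A pseudocount of 1 kept the calls of the low genes and gave smaller log2 differences, -0.68 for CDH4, 0.61 for DSC3, 0.44 for OVOL2, -0.49 for MMP2, 0.51 for TBX3 and 0.56 for PRPH. Of these, DSC3, OVOL2, MMP2, TBX3 and PRPH reached the filter only through the group where they were higher. With no filter MMP9 (0.0729), FOXC2 (0.0976), WTIP (0.0655), SUV39H1 (0.065), FBXL14 (0.0691), CDS1 (0.159), VEZT (0.0841) and LMNA (0.0903) also lost their calls. Counting error was not estimated for any gene.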

Other observations

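Genes that control the turnover of Snail, Twist and ZEB proteins passed the test about as often as all genes did. Of 21 tested, 2 rose, 3 fell and 16 did not pass, where 24.4% of all tested genes passed (median log2 fold change 0.00, beside -0.013 over all tested genes). USP37, a deubiquitinase that stabilizes Snail, was at 7.94 ± 0.694 FPKM in the OE-labelled libraries and 14.4 ± 1.3 FPKM in the NC-labelled libraries (SD, n = 3 each), a log2 difference of -0.85 (limma adjusted p = 9.07e-04). FBXL14, an F-box protein that marks Snail and Twist for degradation, was at 21 ± 2.03 and 14.9 ± 1.36 FPKM in the OE-labelled and NC-labelled libraries (SD, n = 3 each), a log2 difference of 0.49 (limma adjusted p = 0.00807). The F-box gene FBXW7 was at 6.49 ± 0.173 and 5.07 ± 0.343 FPKM in the OE-labelled and NC-labelled libraries (SD, n = 3 each), a log2 difference of 0.35 (limma adjusted p = 0.0357), and it lost its call on leaving out any library but NC-labelled replicate 3 (0.0671 to 0.0988), with the replicate block (0.0536) and with the neighbour shift subtracted (0.23, 0.168). These are transcripts, and no protein was measured here.

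Of 22 tested genes of cadherin shedding and endocytosis, 1 rose, 7 fell and 14 did not pass, where 11.3% of all tested genes rose and 13.1% fell (median log2 fold change -0.06). MMP7, a metalloprotease that can cut E-cadherin, was at 10.9 ± 1.6 FPKM in the OE-labelled libraries and 25.7 ± 1.89 FPKM in the NC-labelled libraries (SD, n = 3 each), a log2 difference of -1.24 (limma adjusted p = 1.88e-04). RAB5A, a GTPase of early endosomes, was at 54.8 ± 3.02 and 74.6 ± 3.55 FPKM in the OE-labelled and NC-labelled libraries (SD, n = 3 each), a log2 difference of -0.44 (limma adjusted p = 0.00261), and at -0.15 with the neighbour shift subtracted (0.144). ADAM15, a membrane metalloprotease, was the gene that rose, at 83.7 ± 2.25 and 62.4 ± 5.3 FPKM in the OE-labelled and NC-labelled libraries (SD, n = 3 each), a log2 difference of 0.43 (limma adjusted p = 0.00409). Without NC-labelled replicate 2, 4 in place of 7 genes fell, and without NC-labelled replicate 3, 3 in place of 1 rose. Over all tested genes 716 in place of 1629 fell and 2071 in place of 1410 rose in these fits.

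Of 15 tested intermediate filament genes around vimentin, 2 rose, 3 fell and 10 did not pass, where 11.3% of all tested genes rose and 13.1% fell (median log2 fold change 0.09). Peripherin (PRPH), a filament protein of the vimentin class, was low, at 1.57 ± 0.171 FPKM in the OE-labelled libraries and 0.747 ± 0.135 FPKM in the NC-labelled libraries (SD, n = 3 each), a log2 difference of 0.99 (limma adjusted p = 0.0148), and it missed the threshold without OE-labelled replicate 3 (0.0626) or NC-labelled replicate 2 (0.0619). The NC-labelled mean of PRPH was under the filter of 1 FPKM, so PRPH was tested only through its OE-labelled level. Keratin 7 (KRT7) was at 15.1 ± 1.1 and 19.4 ± 0.127 FPKM in the OE-labelled and NC-labelled libraries (SD, n = 3 each), a log2 difference of -0.36 (limma adjusted p = 0.0117), and 0.0523 without NC-labelled replicate 2. Lamin A/C (LMNA) was at 177 ± 3.28 and 150 ± 10.9 FPKM in the OE-labelled and NC-labelled libraries (SD, n = 3 each), a log2 difference of 0.24 (limma adjusted p = 0.0279), a call that was lost on leaving out any library but NC-labelled replicate 3 (0.0529 to 0.113). Over the leave-one-out fits the number of genes of this list that rose was 0 to 6, and 543 to 2071 over all tested genes.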
